A study of Mus musculus with 12 samples.

Results

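The loss of Dnmt1 and exposure to the drug AzadC, both of which lower DNA methylation, were compared in mouse palatal shelves by the difference between their effects on each gene. That difference was the log2 change of the knockout group over its control group, minus the log2 change of the AzadC group over its vehicle group. All 12 libraries of the series, 3 in each of 4 groups, entered it, and 17335 of the 56691 genes in the files had enough counts to be tested. The knockout embryos are labelled as untreated DNMT1 KO animals and as a conditional knockout. The control embryos were untreated wild types, the AzadC embryos were wild types given 5-aza-2'-deoxycytidine, and the vehicle embryos were wild types given the solvent of that drug. All were at gestational day 12. By the extraction protocol, each library was made from the shelves of 2 embryos of one genotype, 6 embryos per group, from several litters, whereas the series' design text can be read as pools of 3 animals. The Cre driver, the deleted part of Dnmt1, and the dose, route and time of AzadC are not stated in the labels, so it is not known in which cells of the shelves Dnmt1 was deleted or how long before dissection the drug acted.

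DNMT1 is the enzyme that copies methyl groups onto the new DNA strand after replication, guided by UHRF1. 5-aza-2'-deoxycytidine, here AzadC, is a cytidine analog that is built into DNA during replication and traps methyltransferases there, so that the enzyme pool is used up. Genes of the germline, some imprinted genes and endogenous retroviruses are known to depend on DNA methylation for their silence in somatic tissue. The palatal shelves are outgrowths of the upper jaw, mostly neural crest mesenchyme under an epithelium, with bone-forming, muscle-forming, vascular and blood cells among it.

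Library totals ran from 12640536 to 33113790 expected counts. Palatal mesenchyme regulators were well expressed in all libraries, for instance Prrx1 at 293 to 651 CPM (counts scaled to library size and composition), Pax9 at 121 to 213 CPM and Barx1 at 96.0 to 208 CPM, and 1 Hox gene, Hoxa2, had enough counts to be tested, at 0 to 0.837 CPM. Other regulators differed within a group: Msx1 stood at 10.6, 0.958 and 31.3 CPM in the 3 control libraries. The summed level of 40 tested skeletal muscle genes set libraries apart. It was 1851, 880 and 366 CPM in knockout, 201, 794 and 155 CPM in vehicle, 112 to 276 CPM in the control libraries and 147 to 396 CPM in the AzadC libraries. The part of these cells in the results below was not tested, beyond fits that hold their score as a covariate. That score was 2.53, 1.525 and 0.400 in knockout and -2.01 to 1.37 in the other libraries, so it partly follows the knockout. With it, 5490 genes had a 95% interval of the difference within 1.5-fold, against 7187 without it, so precision fell. A call lost in that fit therefore does not show a part of muscle cells. Whether the libraries came from separately handled batches is not given, and p-values measure the spread between these pools.

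The targeted gene itself differed between all group pairs except AzadC and vehicle. Dnmt1 (9:20907209-20959888 in mm10, minus strand) stood at 286, 278 and 258 CPM in control, 201, 180 and 191 CPM in knockout, 452, 451 and 448 CPM in vehicle and 408, 482 and 411 CPM in AzadC. The knockout libraries were the lowest of all, the control libraries came next, and the vehicle and AzadC libraries overlapped each other above both. Dnmt1 fell by 0.52 on the log2 scale in the knockout against control (adjusted p = 0.000369), its AzadC value was -0.05 (adjusted p = 0.955), and the difference between the effects was -0.47 ± 0.10 (SE, adjusted p = 0.0209). It was also 0.72 higher in vehicle than in control on the log2 scale (adjusted p = 0.000286), although both groups are wild type. The call of the difference ended without control 2 (adjusted p = 0.0524), knockout 2 (adjusted p = 0.0659) or vehicle 3 (adjusted p = 0.0502), with the muscle gene score as a covariate (adjusted p = 0.0651) and in a test against a 1.2-fold difference (adjusted p = 0.162).

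For 2 of the other methylation enzymes the difference was small. It was -0.09 for the de novo methyltransferase Dnmt3a on the log2 scale, with a 95% interval of -0.27 to 0.08, and for the demethylase Tet1 it was 0.13, with an interval of -0.15 to 0.40. Both intervals lie inside a 1.5-fold difference in either direction. For Uhrf1, the partner of DNMT1, it was 0.44 (95% interval 0.19 to 0.69, adjusted p = 0.0512), and it was called in 5 alternatives, among them DESeq2 (adjusted p = 0.00855) and the fits without AzadC 2 or control 1. For the de novo methyltransferase Dnmt3b it was 0.41 (95% interval 0.06 to 0.76, adjusted p = 0.177), so that for both genes the interval reaches beyond a 1.5-fold difference.

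Across all genes, the effects of knockout and drug differed past the threshold (edgeR quasi-likelihood test, Benjamini-Hochberg adjusted p below 0.05) at 763 genes, 4.4% of those tested, of which 382 had a higher and 381 a lower log2 change in the knockout (2.2% each). The knockout itself changed 2473 genes against its control (14.3%), 1358 of them upward. AzadC changed 2 genes against its vehicle (0.0115%), 1 up and 1 down (0.00577% each), where 1101 genes had an unadjusted p below 0.05 and DESeq2 called 89. The median SE over all genes was 0.144 on the log2 scale for both the knockout and the AzadC effect and 0.205 for their difference. The fit shares the dispersion of a gene over all groups, so these like SEs do not measure the spread within each pair of groups. The gene nearest inside the threshold was Laptm5 (difference 0.996, adjusted p = 0.0499) and the gene nearest outside it was Ly86 (difference 1.48, adjusted p = 0.0501), both chosen for their place in that order.

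**Figure D1:**
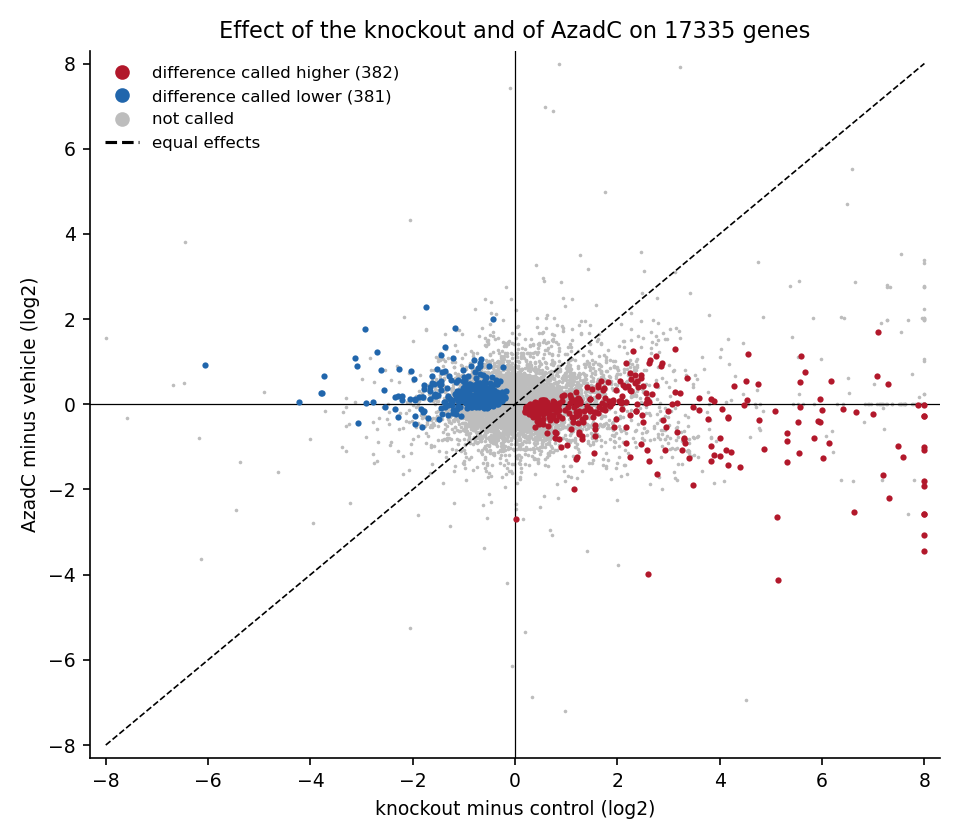
Log2 change in the knockout over control (horizontal) against log2 change in AzadC over vehicle (vertical) for 17335 genes, as fitted by edgeR over 12 libraries, with values beyond 8 drawn at the edge (78 genes). The 763 genes whose effects differ (382 red, 381 blue) lie off the dashed line of equal effects, and the knockout effect is the larger part in 373 of the higher and 357 of the lower ones.

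Most called differences were genes that the knockout changed. Of the 1357 genes that rose in the knockout without an AzadC call, 371 were called higher in the difference, and of the 1115 that fell, 356 were called lower. These counts share libraries with the knockout comparison and are given as a description. A 95% interval of the difference within 1.5-fold was found for 316 of the genes that rose and 187 of those that fell, 41 and 6 of which also had a called difference. Their knockout changes were small, with medians of 0.27 and -0.28 on the log2 scale. The remaining knockout genes had neither a called difference nor a narrow interval, so for them these libraries do not show whether the drug acted alike. Over all genes, 7187 (41.5%) had the interval within 1.5-fold.

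The difference can equally be written as knockout minus AzadC plus vehicle minus control, and this form splits it by other pairs of groups. Among the 382 genes called higher, the knockout minus AzadC part was the larger in 295 and the vehicle minus control part in 87. Among the 381 called lower, the knockout minus AzadC part was the larger in 239 and the vehicle minus control part in 142. The median values of the genes called lower were -0.51 on the log2 scale for the first part and -0.39 for the second, and those of the genes called higher were 1.01 and 0.24. Control had the highest group mean in 297 of the 381 genes called lower and the lowest in 253 of the 382 called higher. AzadC held that place in 74 and 94 of them. These genes were chosen by the difference, in which control and AzadC carry the same sign, so such counts are a description only. Vehicle and control differed from each other at 610 genes (3.52%), 253 higher and 357 lower in vehicle. Exposure to the vehicle, litter and handling cannot be told apart in that pair. Knockout and AzadC differed from each other at 1841 genes (10.6%), 1093 higher and 748 lower in knockout. With control and vehicle pooled as 1 shared baseline, where the difference reduces to that pair, 1298 genes were called, 834 higher and 464 lower. That fit counts the gap between control and vehicle as spread, which can raise the p-values of genes where these groups differ.

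**Figure D2:**
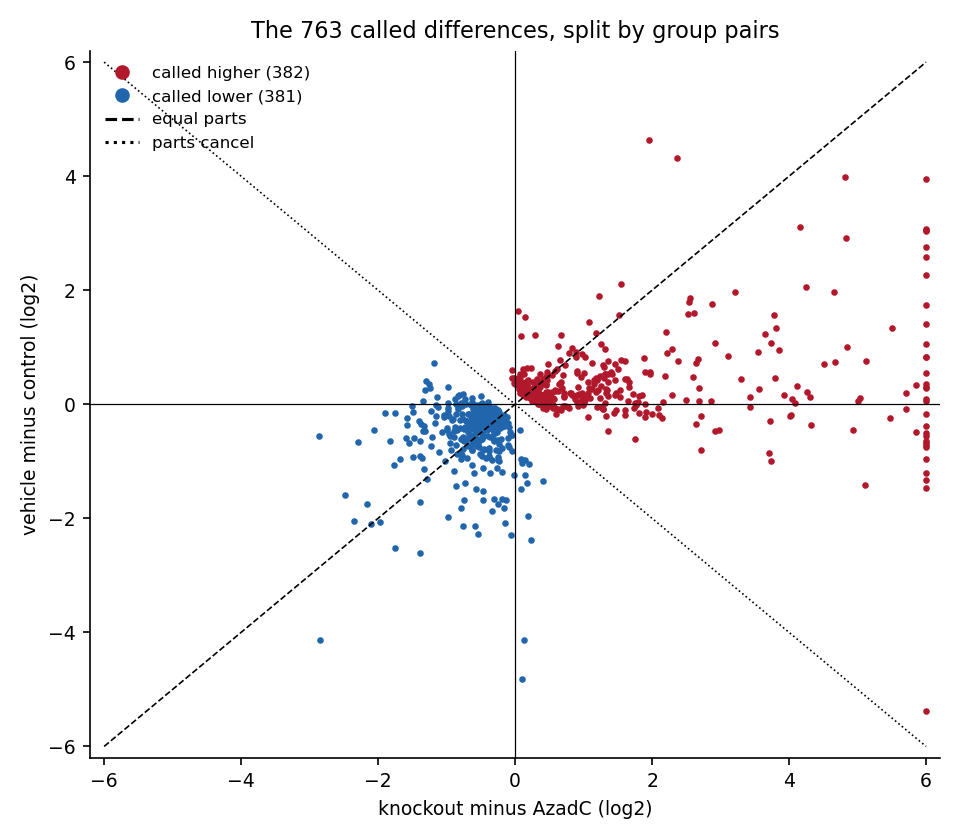
The 763 called genes, each at its log2 value for knockout minus AzadC (horizontal) and for vehicle minus control (vertical), the 2 parts that add up to the difference; values beyond 6 are drawn at the edge (31 genes). Genes called higher (red) spread along the horizontal axis, while many genes called lower (blue) extend downward, where vehicle is below control.

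Genes of the integrated stress response rose in the knockout, 40 of 49 against control (7.83% of all genes). With the drug 0 of 49 were called, near the 0.0115% of all genes called in that comparison. This response, run by the transcription factor ATF4 and its partners, raises amino acid transporters, enzymes of amino acid synthesis and aminoacyl-tRNA synthetases when protein synthesis is curbed. Of 49 tested genes, 33 were called higher in the difference and 0 lower, against 2.2% of all genes in each direction. The median of the difference over the list was 0.69 on the log2 scale, 0.71 for the knockout effect and -0.07 for the AzadC effect, where the medians over all genes were within 0.01 of 0. The list's genes were also higher in the knockout against AzadC, 40 of 49 (6.31% of all genes). In vehicle against control 1 was called lower (2.06% of all genes).

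Amino acid transporters were among the stress genes with the smallest adjusted p-values. Slc7a5, which carries large neutral amino acids (8:121881150-121907694, minus strand), stood at 27.9, 24.2 and 22.2 CPM in control, 24.4, 26.5 and 20.7 CPM in vehicle, 111, 114 and 86.8 CPM in knockout and 26.5, 22.5 and 24.2 CPM in AzadC. The knockout libraries lay far above the other 9, which overlapped one another. The difference was 2.04 ± 0.18 on the log2 scale (SE, adjusted p = 3.53e-05). Its relatives Slc7a1 and Slc7a3, carriers of arginine and lysine, had differences of 1.66 ± 0.16 (adjusted p = 7.17e-05) and 3.83 ± 0.40 (adjusted p = 0.000146). Slc7a3 reached 18.7 to 29.6 CPM in the knockout libraries and 0.868 to 1.81 CPM in the rest.

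Among the enzymes, asparagine synthetase, Asns (6:7675169-7693254, minus strand), stood at 70.1 to 93.7 CPM in knockout, 21.9 to 27.6 CPM in control, 19.5 to 24.4 CPM in vehicle and 18.4 to 20.3 CPM in AzadC, with a difference of 1.90 ± 0.18 (adjusted p = 6e-05). Chac1, which breaks down glutathione (2:119351229-119354381, plus strand), was at 5.93 to 12.01 CPM in the knockout libraries and between 0.158 and 0.484 CPM in the other 9. Its difference was 5.14 ± 0.64 (adjusted p = 0.000769). All 5 of these genes kept their call in each of the 23 alternatives tried. Picked after its values were seen, Atf4 itself had a difference of 0.41 ± 0.13 (adjusted p = 0.0897) and Ddit3, the stress factor CHOP, of 1.01 ± 0.26 (adjusted p = 0.0453).

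The promoters of Asns and Chac1 are shown because the binding site of ATF4 with a C/EBP partner, the sequence TGATGNAA, is the textbook element of this response. The RefSeq windows of GRCm38.p6 run from 250 bases before to 50 after the start, 6:7693160-7693459 on the minus strand for Asns and 2:119350992-119351291 on the plus strand for Chac1, and capitals mark the matches on either strand.
Asns: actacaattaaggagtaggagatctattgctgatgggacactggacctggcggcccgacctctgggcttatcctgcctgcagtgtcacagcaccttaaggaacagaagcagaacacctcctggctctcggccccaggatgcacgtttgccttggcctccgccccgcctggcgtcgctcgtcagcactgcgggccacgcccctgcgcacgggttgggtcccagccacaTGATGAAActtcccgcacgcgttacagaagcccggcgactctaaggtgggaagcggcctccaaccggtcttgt
Chac1: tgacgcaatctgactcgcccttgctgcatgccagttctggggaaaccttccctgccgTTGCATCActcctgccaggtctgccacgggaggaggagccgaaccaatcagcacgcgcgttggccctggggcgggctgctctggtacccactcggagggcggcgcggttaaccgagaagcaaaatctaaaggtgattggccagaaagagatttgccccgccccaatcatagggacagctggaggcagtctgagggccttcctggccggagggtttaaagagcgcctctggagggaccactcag
Each window held 1 match, which begins 23 bases before the start in Asns and 193 before it in Chac1. Over all 27025 promoters of that table, 1096 (4.06%) held a match, and 273 of the 12172 tested genes with an entry did (2.24%). The table holds 39 of the 49 stress genes and 12172 of the 17335 tested genes, so both are covered in part only. A share over the stress list is not given. A match is a description of the letters and says nothing of binding here.

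The count of the list moved with the fit. It was 15 with the muscle gene score as a covariate, 17 in the test against a 1.2-fold difference and 20 without knockout 2, the library with the second highest muscle sum.

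Germline genes, which somatic cells keep silent with promoter methylation, had the largest differences as a group and the widest errors. The list holds 82 genes, of which 58 had enough counts to be tested. Of 58 tested genes, 47 rose in the knockout against control (7.83% of all genes rose) and 47 were higher in the knockout than in AzadC (6.31% of all genes). In the difference 16 were called higher and 0 lower, against 2.2% of all genes in each direction. The filter keeps a gene with enough counts in a single group, here often the knockout: 31 of the 58 had a group under 10 counts and 16 had 0 counts in control. These counts and medians therefore describe the tested genes and are no test of the list. The median log2 value over the list was 4.90 in the knockout, 0.15 with AzadC and 4.52 for the difference. The summed level of the list was 710 to 1002 CPM in the knockout libraries, 101 to 116 CPM with AzadC, 113 to 125 CPM in vehicle and 95.9 to 137 CPM in control, so that the AzadC libraries lay within the range of the controls. Of the 47 genes, 31 had no called difference, and 29 of these 31 were called higher in the knockout than in AzadC. Their median count over a whole group was 274 in knockout, 2 in AzadC and 0 in vehicle, which leaves the AzadC effect, a ratio of near-zero counts, without a usable error.

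Stag3, a subunit of the meiotic cohesin ring (5:138280240-138312393, plus strand), was countable in all groups. It stood at 13.1, 17.5 and 15.0 CPM in control, 11.7, 13.5 and 13.3 CPM in vehicle, 70.7, 83.3 and 62.1 CPM in knockout and 16.4, 16.8 and 15.6 CPM in AzadC. The knockout libraries lay above all others, and the difference was 1.91 ± 0.18 (SE, adjusted p = 6.39e-05). Mnd1, which helps strand exchange in meiotic recombination, was at 74.3 to 90.6 CPM in knockout and 3.71 to 6.65 CPM in the other libraries, with a difference of 4.15 ± 0.29 (adjusted p = 4.86e-06). Sycp2 of the synaptonemal complex had a difference of 5.07 ± 0.78 (adjusted p = 0.00345) and the X-linked homeobox gene Rhox5 of 5.62 ± 0.87 (adjusted p = 0.00352). These genes were called in all 23 alternatives.

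Other germline genes were near 0 outside the knockout. Dazl, which binds RNA in germ cells and was picked after its values were seen, was at 67.5, 120 and 80.3 CPM in knockout, 0 CPM in all control libraries, 0, 0 and 0.0807 CPM in vehicle and 0, 0.363 and 0.100 CPM in AzadC. Its difference was 11.71 ± 3.46 (adjusted p = 0.0819), and its knockout against AzadC value was 9.14 (adjusted p = 2.05e-07). For 15 of the 58 genes no AzadC library had a count. Among these, chosen in the same way, Mov10l1, a helicase of the piRNA pathway, was at least 316-fold higher in knockout than in AzadC, and Tex13b at least 291-fold, each against a floor of 3 counts over the AzadC group. For Xlr3c and Xlr4c, which have near-identical neighbours that share reads, single values are uncertain.

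The promoters of Stag3 and of the germline ADP/ATP carrier Slc25a31 are shown as members with both of a pair of short sequences, CACGTG and TCCCGC, which are known as the E-box and E2F sites of a repressor complex that keeps germline genes off in somatic cells. The windows are 5:138280259-138280558 and 3:40708621-40708920, both plus strand, from RefSeq on GRCm38.p6, with the matches in capitals.
Stag3: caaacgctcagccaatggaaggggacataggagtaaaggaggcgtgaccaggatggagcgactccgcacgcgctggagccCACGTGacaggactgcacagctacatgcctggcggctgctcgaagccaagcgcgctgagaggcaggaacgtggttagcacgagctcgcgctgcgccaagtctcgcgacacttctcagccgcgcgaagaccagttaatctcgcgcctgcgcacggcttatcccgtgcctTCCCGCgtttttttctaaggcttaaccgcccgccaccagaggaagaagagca
Slc25a31: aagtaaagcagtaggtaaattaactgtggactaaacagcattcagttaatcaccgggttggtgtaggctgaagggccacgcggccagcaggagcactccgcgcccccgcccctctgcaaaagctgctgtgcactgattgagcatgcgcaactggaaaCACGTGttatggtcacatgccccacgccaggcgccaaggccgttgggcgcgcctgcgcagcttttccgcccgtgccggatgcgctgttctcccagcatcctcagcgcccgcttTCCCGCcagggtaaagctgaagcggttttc
In Stag3 the matches begin 170 and 2 bases before the start, and in Slc25a31 93 bases before it and at base 21 after it. Of the 51 germline list genes with a promoter entry (of 58), 15 held CACGTG (29.4%), 23 held TCCCGC on either strand (45.1%) and 8 held both (15.7%). Over the 12172 tested genes with an entry, of 17335, the shares were 9.87%, 34.9% and 3.82%, and over all 27025 promoters 1957, 5410 and 554 held them. Slc25a31 was at 16.5 to 24.0 CPM in knockout and at 0 to 1.14 CPM elsewhere, with a difference of 6.67 ± 1.57 (adjusted p = 0.0308), a call that ended with limma-voom, with the muscle score as a covariate and without AzadC 1, AzadC 3, knockout 1, knockout 2, vehicle 1 or vehicle 3 (adjusted p up to 0.19).

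The number of germline genes called higher depended on the test. It was 32 with DESeq2, 35 with limma-voom and 45 with the shared baseline. It was 10 with the muscle score as a covariate, 10 without knockout 2 and 9 without vehicle 3.

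Among named genes, Slc38a6, Meioc and Noct had the smallest adjusted p-values. Slc38a6, a transporter of neutral amino acids (12:73286779-73354049, plus strand), stood at 20.9, 22.9 and 22.7 CPM in control, 19.99, 18.3 and 16.1 CPM in vehicle, 236, 317 and 244 CPM in knockout and 23.5, 17.6 and 19.8 CPM in AzadC. Its difference was 3.43 ± 0.18 (SE, adjusted p = 3.8e-07). Noct, an NADP phosphatase with a daily rhythm, was at 859, 1138 and 592 CPM in knockout and between 12.7 and 21.9 CPM in the other 9 libraries, a difference of 5.63 ± 0.33 (adjusted p = 6.82e-07). In both genes the knockout libraries stood alone. The mitochondrial RNA-degrading enzyme Pnpt1 was at 161 to 218 CPM in knockout and 45.8 to 54.7 CPM elsewhere (difference 1.82 ± 0.14, adjusted p = 1.1e-05). Differences over 5 on the log2 scale also included those of AI662270 (5.94), Trim5 (5.41), Cntn5 (5.36) and Trim66 (5.24), and, among genes with a group under 10 counts, Magea13 (7.89), Tuba3a (6.81) and Rpl39l (5.99). The muscle genes Xirp1 (6.69), Mrln (5.34) and Pax7 (5.19) were highest in knockout 1 and lost their call without knockout 1 or knockout 2.

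Meioc, which keeps germ cells in meiosis, was the called gene whose AzadC and knockout effects had opposite signs, both past the threshold. It stood at 0.865, 1.19 and 0.799 CPM in control, 18.7, 27.8 and 25.2 CPM in vehicle, 4.71, 7.53 and 5.21 CPM in knockout and 1.26, 1.33 and 1.80 CPM in AzadC. Vehicle was the group that stood highest, above the knockout, and the AzadC libraries lay just above the controls. The difference was 6.59 ± 0.36 (adjusted p = 3.85e-07), made of a vehicle minus control part of 4.64 and a knockout minus AzadC part of 1.95 (adjusted p = 0.00029 in the fit with 4 groups). With the shared baseline, which pools control and vehicle, the adjusted p of that part was 0.384. Cav1, which builds caveolae, was the gene raised by AzadC: it was at 24.8 to 28.3 CPM in AzadC, 12.4 to 16.0 CPM in vehicle, 20.9 to 23.2 CPM in control and 17.8 to 20.2 CPM in knockout. Its difference was -1.10 ± 0.16 (adjusted p = 0.00194), with a vehicle below control by 0.62 on the log2 scale, and with the shared baseline it was -0.49 (adjusted p = 0.165).

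**Figure D3:**
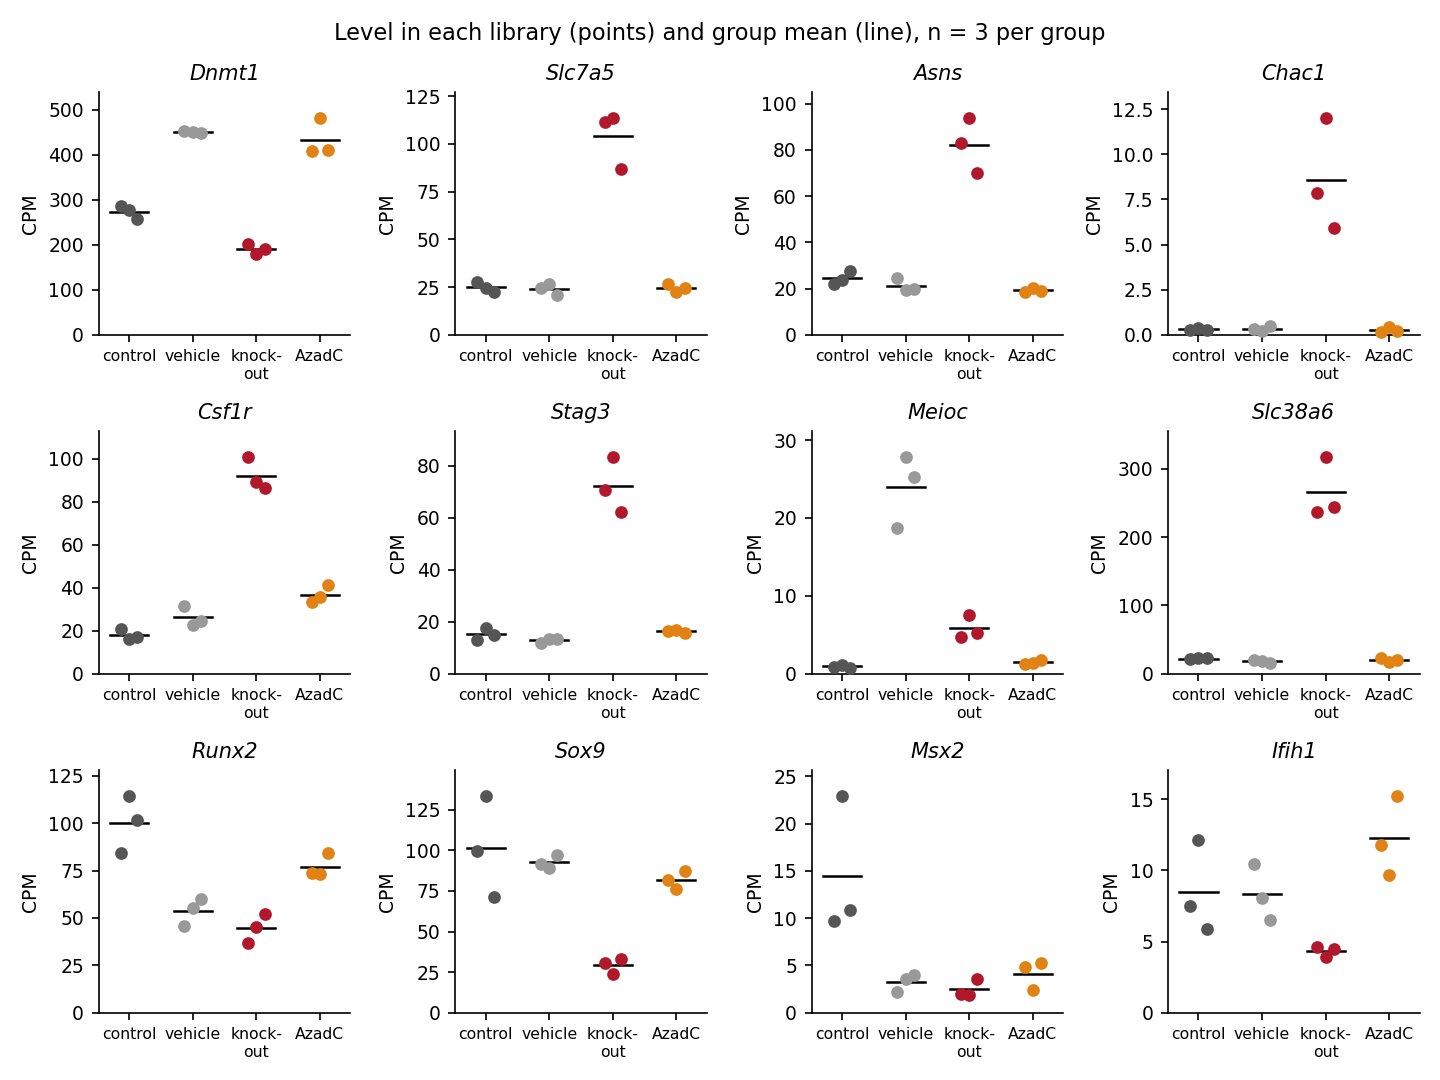
CPM in each library (points) with the group mean (line) for 12 genes, 3 libraries per group and a linear axis from 0. The knockout stands alone for Slc7a5, Asns, Chac1, Stag3 and Slc38a6, whereas vehicle departs from control for Dnmt1, Meioc, Runx2 and Msx2. For Csf1r the groups do not overlap, and the knockout is highest.

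Macrophage and leukocyte genes were higher in the knockout by more than in AzadC. Of 35 tested genes, 29 rose in the knockout (7.83% of all genes), 13 were called higher in the difference (2.2% of all genes) and 0 lower, and 23 were higher in the knockout than in AzadC (6.31% of all genes). The list's median was 1.74 on the log2 scale for the knockout effect, 0.69 for the AzadC effect and 1.14 for their difference. With AzadC, 33 of 35 values were positive and 22 had an unadjusted p below 0.05, but 0 passed the threshold. The summed level was 618 to 648 CPM in knockout, 286 to 322 CPM in AzadC, 184 to 229 CPM in vehicle and 154 to 212 CPM in control, so the AzadC libraries lay above both baselines and below the knockout. In bulk tissue, more cells of a type and more RNA per cell cannot be told apart.

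The receptor for the macrophage growth factor, Csf1r, stood at 20.7, 16.1 and 17.3 CPM in control, 31.7, 22.7 and 24.8 CPM in vehicle, 101, 89.0 and 86.5 CPM in knockout and 33.4, 35.6 and 41.5 CPM in AzadC. The 4 groups did not overlap, in the order control, vehicle, AzadC, knockout. The difference was 1.86 ± 0.19 (SE, adjusted p = 0.000131), against 0.49 for the AzadC effect (adjusted p = 0.446). Adgre1, the F4/80 antigen, had a difference of 1.78 ± 0.24 (adjusted p = 0.00164) and Mpeg1, a pore-forming protein of phagocytes, of 1.96 ± 0.27 (adjusted p = 0.00178), and these 3 genes kept their call in all alternatives. The count of 13 was 4 with the muscle score as a covariate, 7 in the test against a 1.2-fold difference, 7 or 8 without AzadC 1, AzadC 3, control 2, any 1 knockout library or vehicle 1, and 20 to 22 with DESeq2, no filter, the shared baseline or without control 1.

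Interferon response genes went the other way. In this list of 50, which holds antiviral effectors and class I antigen presentation genes, the median log2 value was 1.16 for AzadC, 0.34 for the knockout and -0.68 for the difference, and 43 of 50 differences were negative. All 50 AzadC values were positive and 32 had an unadjusted p below 0.05, yet 0 passed the threshold over all genes. In the difference 2 genes were called lower and 0 higher, near the 2.2% of all genes called in each direction. In the knockout against control 7 rose (7.83% of all genes) and 1 fell (6.43% of all genes). The summed level was 634 to 731 CPM in AzadC, 391 to 563 CPM in vehicle, 502 to 529 CPM in knockout and 433 to 525 CPM in control, so that the AzadC libraries lay above all others. Against AzadC, 9 genes were lower in the knockout (4.31% of all genes) and 1 higher.

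Ifih1, the RNA sensor MDA5 (2:62595798-62646255, minus strand), stood at 7.48, 12.1 and 5.88 CPM in control, 10.5, 8.10 and 6.53 CPM in vehicle, 4.61, 3.89 and 4.50 CPM in knockout and 11.8, 9.69 and 15.2 CPM in AzadC. The knockout libraries were the lowest, whereas the median knockout effect over the list was 0.34 on the log2 scale. The AzadC libraries overlapped those of vehicle and control. The difference was -1.54 ± 0.37 (adjusted p = 0.0359), a call that ended in 12 of 23 alternatives (adjusted p up to 0.0965), among them without AzadC 1, AzadC 3, control 2, vehicle 2, vehicle 3 or any 1 knockout library. Ifi35 had a difference of -1.64 ± 0.43 (adjusted p = 0.0474) and lost its call in 15 alternatives (adjusted p up to 0.235). Picked after its values were seen, the class I light chain B2m stood at 70.4 to 84.2 CPM in AzadC, 96.2 to 97.1 CPM in knockout and 54.3 to 71.5 CPM in the wild-type baselines. Its difference was 0.05 ± 0.12 (adjusted p = 0.871). The count of 2 lower genes was 0 to 10 over the alternatives, 10 without vehicle 1 and 0 without AzadC 1, AzadC 3, control 2, vehicle 2, vehicle 3 or any 1 knockout library.

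**Figure D4:**
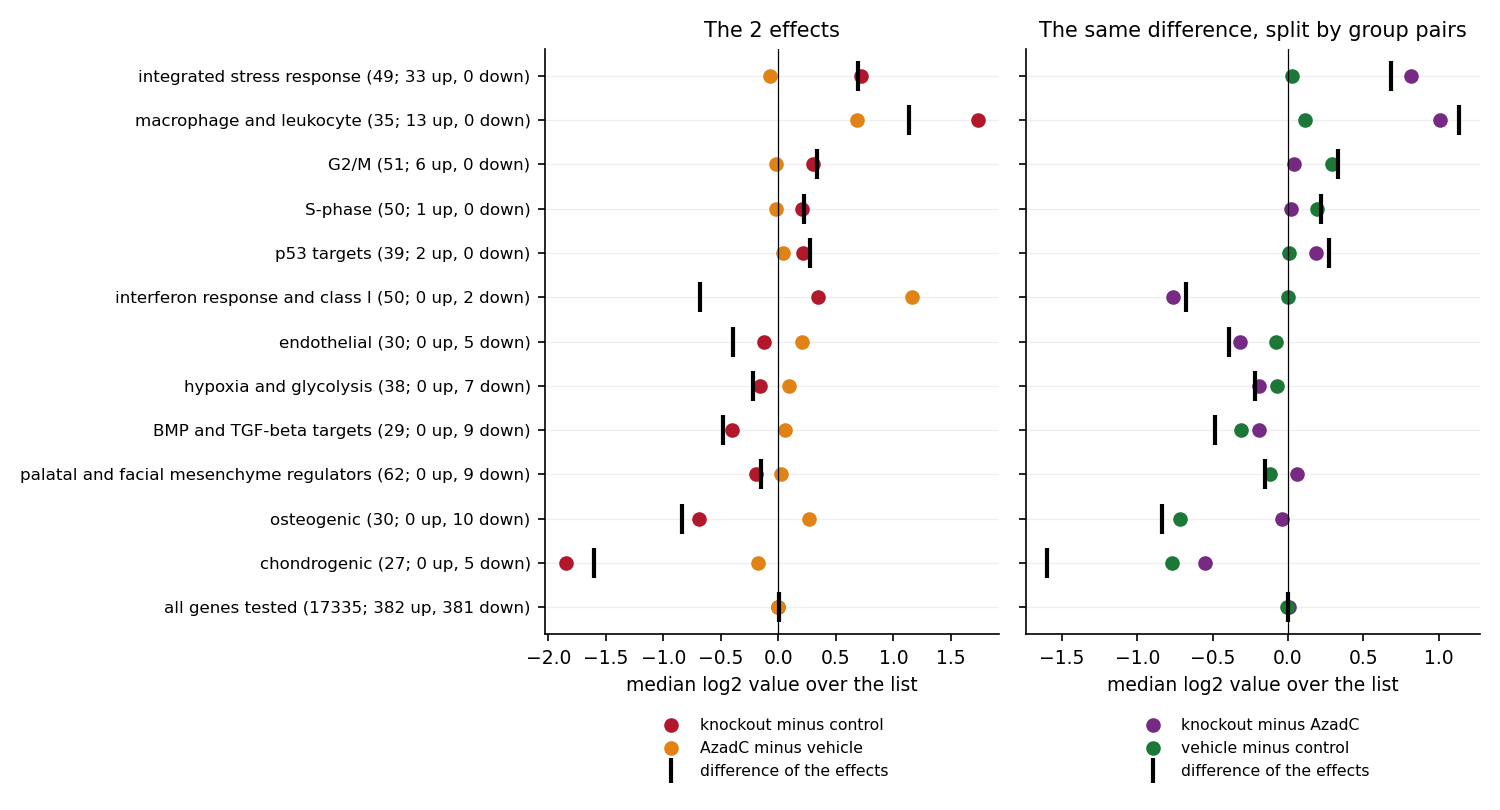
Median log2 value over 12 gene lists and over all 17335 genes, for the knockout and AzadC effects (left) and for the group pairs knockout minus AzadC and vehicle minus control (right), with the median of the difference as a black bar; beside each list stand its tested genes and those called. The stress response and macrophage lists lie to the right, the interferon list to the left with an AzadC median of 1.16, and the osteogenic list to the left, where its vehicle minus control median is -0.72.

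Bone-forming genes had lower values in the knockout effect than in the AzadC effect, and for many of them the baselines differed as well. Of 30 tested osteogenic genes, 10 were called lower in the difference (2.2% of all genes) and 0 higher. In the knockout against control 15 fell (6.43% of all genes), and in vehicle against control 14 were lower (2.06% of all genes). The median over the list was -0.84 on the log2 scale for the difference, -0.72 for vehicle minus control and -0.04 for knockout minus AzadC.

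Runx2, the master regulator of osteoblasts (17:44495987-44814797, minus strand), stood at 84.1, 114 and 102 CPM in control, 45.8, 55.2 and 59.8 CPM in vehicle, 37.0, 45.3 and 52.3 CPM in knockout and 73.5, 72.9 and 84.0 CPM in AzadC. Control was highest, AzadC next, and vehicle and knockout overlapped at the bottom. The difference was -1.68 ± 0.20 (SE, adjusted p = 0.00049), the sum of -0.78 for knockout minus AzadC and -0.90 for vehicle minus control. Its downstream factor Sp7 had a difference of -2.59 ± 0.37 (adjusted p = 0.00221) and the BMP antagonist Bmp3 of -2.81 ± 0.36 (adjusted p = 0.000945). With the shared baseline these were -0.78 for Runx2 (adjusted p = 0.119), -1.28 for Sp7 (adjusted p = 0.11) and -0.54 for Bmp3 (adjusted p = 0.694). Since that fit counts the gap between the baselines as spread, these p-values do not show that knockout and AzadC were alike. The Runx2 libraries of these groups did not overlap. Aspn, a matrix proteoglycan, had the lowest difference among named genes with at least 10 counts in each group, -4.71 ± 1.04 (adjusted p = 0.0231), from 19.8 to 37.6 CPM in control and 0.182 to 6.14 CPM in all other libraries. With the shared baseline it was 0.12 (adjusted p = 0.974), and its call also ended with limma-voom, with the muscle score as a covariate and without AzadC 1, AzadC 3, control 2, knockout 2, vehicle 1 or vehicle 3 (adjusted p 0.0501 to 0.109). The osteogenic count was 2 with the shared baseline, 6 with the muscle score as a covariate, 6 without knockout 2 and 16 with no filter.

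Cartilage genes fell in the knockout, 20 of 27 (6.43% of all genes), and 5 were called lower in the difference (2.2% of all genes), with a list median of -1.60 for the difference, -1.85 for the knockout effect and -0.18 for the AzadC effect. Sox9, the regulator of chondrocytes (11:112782224-112787760, plus strand), stood at 99.6, 133 and 71.5 CPM in control, 91.5, 89.1 and 97.0 CPM in vehicle, 30.8, 23.6 and 33.3 CPM in knockout and 81.6, 75.9 and 87.1 CPM in AzadC. The knockout libraries lay below the other 9, which overlapped. The Sox9 difference was -1.62 ± 0.25 (adjusted p = 0.00341) and was called in all alternatives. The control libraries differed widely in this list, with a summed level of 2996, 4628 and 1680 CPM, against 819 to 1137 CPM in knockout, 2193 to 2366 CPM in vehicle and 1657 to 2242 CPM in AzadC. The count of 5 was 16 without control 3, 8 without AzadC 2, 1 without knockout 2, 2 without control 2 or AzadC 3 and 3 without AzadC 1 or any 1 vehicle library. It was 12 with DESeq2, 18 with no filter, 2 with limma-voom and 3 in the test against a 1.2-fold difference.

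Among 62 regulators of palatal and facial mesenchyme, 9 were called lower in the difference, against 2.2% of all genes, and 0 higher. Zeb2, a repressor active in neural crest cells, stood at 112 to 117 CPM in control, 137 to 145 CPM in vehicle, 73.5 to 90.6 CPM in knockout and 152 to 175 CPM in AzadC, and the 4 groups did not overlap. Its difference was -0.68 ± 0.11 (SE, adjusted p = 0.00449). Foxf2, a forkhead factor of the palate, was at 77.3 to 111 CPM in knockout and 151 to 209 CPM in all other libraries (difference -0.95 ± 0.19, adjusted p = 0.0132). Zeb2 and Foxf2 were called in all alternatives. Twist1 had a difference of -1.10 ± 0.20 (adjusted p = 0.00867), with an adjusted p of 0.0635 when the muscle score was a covariate. Msx2, at 9.66 to 22.9 CPM in control and 1.92 to 5.24 CPM in the other libraries, had -2.90 ± 0.56 (adjusted p = 0.0127), and -0.75 with the shared baseline (adjusted p = 0.597). The count of 9 was 4 with the muscle score as a covariate, 5 in the test against a 1.2-fold difference or without AzadC 3, knockout 2 or vehicle 1, and 17 with no filter.

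Targets and modulators of BMP and TGF-beta signalling, which pattern the shelves and drive bone formation, had 9 of 29 genes called lower, against 2.2% of all genes, and 0 higher. Ltbp2 is a matrix protein of the latent TGF-beta binding protein family. It was at 20.1, 25.3 and 6.85 CPM in control and 3.90, 3.86 and 4.84 CPM in vehicle. In knockout it was at 1.74, 0.443 and 1.78 CPM, and in AzadC at 7.09, 5.21 and 7.68 CPM. The knockout libraries were lowest and those of AzadC overlapped the control range. The difference was -4.40 ± 0.65 (adjusted p = 0.00258), and -2.34 with the shared baseline (adjusted p = 0.0903). Pmepa1, a feedback inhibitor of the TGF-beta pathway, had -0.73 (adjusted p = 0.00632) and Id2, a direct BMP target, -0.66 (adjusted p = 0.00825, or 0.0511 with the muscle score as a covariate). The count was 4 with the shared baseline.

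Endothelial genes had 5 of 30 called lower in the difference (2.2% of all genes) and 0 higher, and 10 of 30 were lower in the knockout than in AzadC (4.31% of all genes). Erg, a transcription factor of the vessel wall, stood at 9.89 to 13.04 CPM in knockout, 18.7 to 27.2 CPM in AzadC, 24.9 to 25.2 CPM in vehicle and 29.9 to 52.8 CPM in control. The knockout libraries lay below all others, and the difference was -1.64 ± 0.27 (adjusted p = 0.00467), or -0.95 with the shared baseline (adjusted p = 0.0502). Aplnr, the apelin receptor, had -0.55 ± 0.09 (adjusted p = 0.00422, or 0.0511 with the muscle score as a covariate). The endothelial count stayed between 4 and 7 over the alternatives.

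Genes of hypoxia and glycolysis, 37 genes on 38 rows since the symbol Aldoa stands on 2, had 7 called lower, against 2.2% of all genes, and 0 higher. Vegfa, the vessel growth factor, stood at 123, 127 and 126 CPM in control, 107, 116 and 108 CPM in vehicle, 110, 103 and 101 CPM in knockout and 131, 143 and 133 CPM in AzadC. AzadC was above and knockout below the control libraries. The difference was -0.56 ± 0.08 (adjusted p = 0.00269). Pdk1, which holds pyruvate back from the mitochondrion, had -1.04 ± 0.15 (adjusted p = 0.00239), and both genes were called in all alternatives. The count was 4 with the muscle score as a covariate, 3 against a 1.2-fold difference and 11 or 12 with no filter or DESeq2. It was 3 without vehicle 3 and 4 without AzadC 1, knockout 1 or knockout 2.

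Cell cycle genes differed between the baselines. Of 51 G2/M genes, 35 were higher in the knockout than in control (7.83% of all genes) and 22 were higher in vehicle than in control (1.46% of all genes). Between knockout and AzadC 0 passed edgeR's threshold, where 3 had an unadjusted p below 0.05 and the list median was 0.04. In the difference 6 were called higher (2.2% of all genes), with a median of 0.33 over the list, and with the shared baseline 0. The count was 1 to 3 without AzadC 1, AzadC 3, control 2, control 3, knockout 2, vehicle 1 or vehicle 3, and 10 or 12 without vehicle 2 or AzadC 2. Of 50 S-phase genes 1 was called higher, near the 2.2% of all genes. It was the helicase subunit Mcm7 (0.45, adjusted p = 0.0388), which lost its call in 13 alternatives.

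Skeletal muscle genes had 6 of 40 called higher in the difference (2.2% of all genes), with a median of 3.87 on the log2 scale. The high libraries were knockout 1, knockout 2 and vehicle 2, as given above, and the count was 0 without knockout 1, knockout 2, vehicle 2, AzadC 1, AzadC 2 or control 2, 1 or 2 without AzadC 3, control 3 or vehicle 1, 13 with DESeq2, 37 with no filter, 1 with limma-voom or the shared baseline, and 0 with the replicate block, with either covariate or against a 1.2-fold difference. The muscle score is made from these same genes, so the count with it as a covariate is no test of them. The part of muscle cells in the shelves was not measured otherwise. Globin and other erythroid genes had 1 of 27 called higher, near the 2.2% of all genes, and 10 of them were higher in vehicle than in control (1.46% of all genes).

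Imprinted genes were called in both directions, 2 of 49 higher and 2 lower, close to the 2.2% of all genes called in each direction. Mest had 1466, 1777 and 1507 CPM in knockout, against 905 to 1063 CPM in the other 9 libraries, a difference of 0.57 ± 0.11 (adjusted p = 0.0146) that was not called against a 1.2-fold difference (adjusted p = 0.0795). Peg12 was the other higher gene (0.52, adjusted p = 0.0294), and Grb10 (-0.36, adjusted p = 0.028) and Plagl1 (-0.83, adjusted p = 0.0399) were the lower ones. Peg12 lost its call in 11 alternatives and Grb10 and Plagl1 in 10 each, among them without AzadC 1 or knockout 2, and Plagl1 was 0.21 with the shared baseline. Of 39 p53 target genes 2 were called higher, a share likewise near that of all genes, the death receptor Eda2r (3.11 ± 0.49, adjusted p = 0.00354) and Sesn2 (1.203 ± 0.23, adjusted p = 0.0126, or 0.0597 with the muscle score as a covariate), a gene shared with the stress list. However, 9 were higher in knockout than in control (7.83% of all genes) and 8 higher than in AzadC (6.31% of all genes). Their summed level was 1734 to 1775 CPM in knockout, 1574 to 1641 CPM in AzadC, 1564 to 1604 CPM in vehicle and 1479 to 1625 CPM in control. Of 48 clustered protocadherins, 2 were called higher, also near the 2.2% of all genes (12 with the shared baseline), although 17 were higher in knockout than in AzadC (6.31% of all genes). Of 13 mitochondrially encoded genes 0 were called by edgeR at the threshold, with 2 at an unadjusted p below 0.05.

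**Figure D5:**
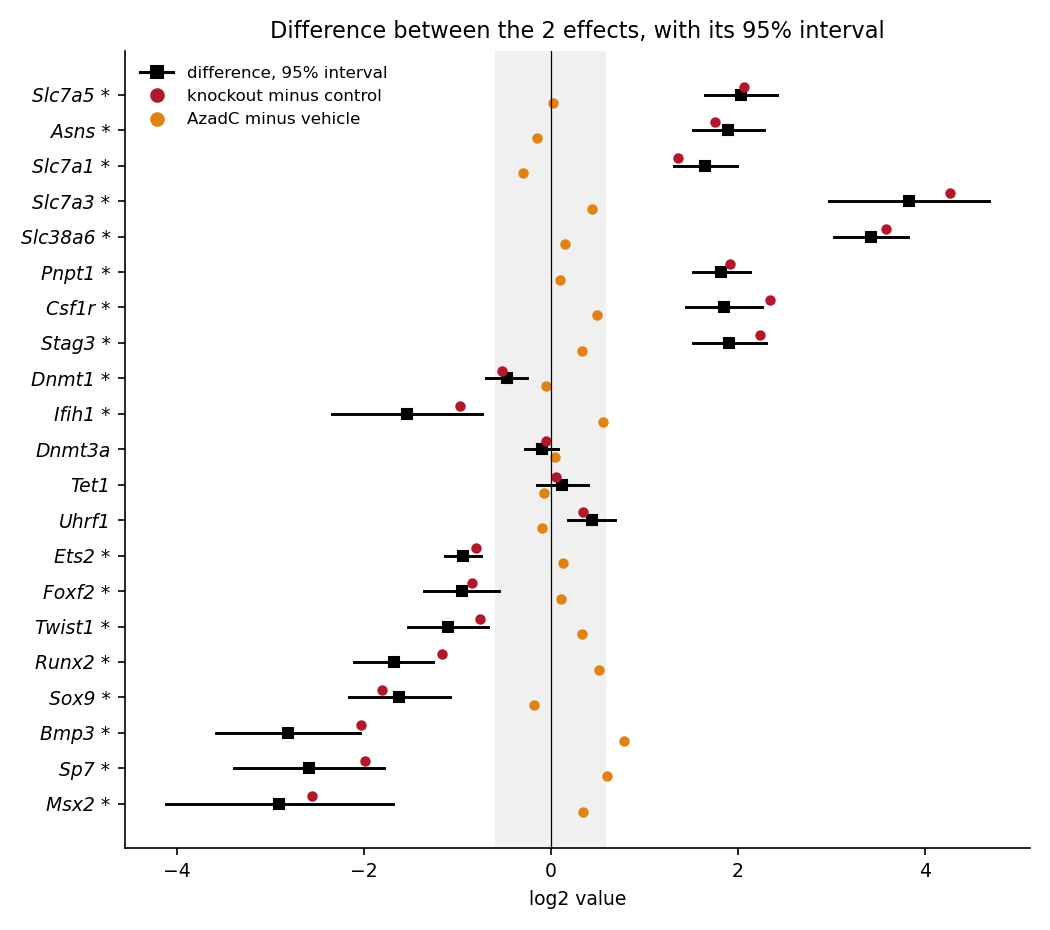
Difference between the knockout and AzadC effects (black squares) with its 95% interval for 21 named genes, beside the knockout effect (red) and the AzadC effect (orange), all in log2; the grey band spans a 1.5-fold difference in either direction and a star marks a call. The intervals of Dnmt3a and Tet1 lie inside the band, and those of Slc7a5, Slc38a6, Runx2 and Sox9 lie outside it.

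In 34 genes the difference passed the threshold although neither effect did, 10 higher and 24 lower. Emp1, an epithelial membrane protein, stood at 150, 188 and 196 CPM in control, 78.3, 88.4 and 104 CPM in vehicle, 132, 130 and 156 CPM in knockout and 130, 112 and 134 CPM in AzadC. Its knockout and AzadC values of -0.36 and 0.47 had opposite signs, and the difference was -0.83 ± 0.17 (adjusted p = 0.0168), or 0.15 with the shared baseline. Its call ended without AzadC 3 or knockout 2, with the muscle score as a covariate and against a 1.2-fold difference. The lipase anchor of capillaries, Gpihbp1, had -2.42 ± 0.49 (adjusted p = 0.0159), from 0.363 to 0.557 CPM in vehicle, 1.38 to 1.67 CPM in control, 0.685 to 1.52 CPM in knockout and 1.67 to 2.18 CPM in AzadC, and -0.74 with the shared baseline (adjusted p = 0.466), and its call also ended with the muscle score as a covariate. In both genes vehicle was the lowest group. Of 104 named genes with a called difference, 32 kept it in all 23 alternatives, 22 of 54 higher and 10 of 50 lower ones, while 46 lost it with the muscle score as a covariate, 45 with control and vehicle as 1 baseline and 35 without knockout 2.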

How the data were processed

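Palatal shelf RNA of 12 pools was sequenced as mRNA libraries (NuGen kit), per the labels' protocols. The authors deposited RSEM expected counts, per the file headers. The submitters' processing notes name RSEM 1.3.1, STAR 2.7.0, DESeq2, Trim Galore and FastQC, with build mm10. Annotation release and strand setting: not given in the sources used here. RSEM divides reads among genes they fit, so near-identical copies are uncertain. Gene symbols came from the files, positions from GENCODE M21 (52073 of 56691 IDs) and promoters from RefSeq GRCm38.p6.

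Expected counts were rounded, filtered with filterByExpr by group, scaled by TMM and fitted with edgeR 4.0.16 (R 4.3.3), 1 mean per group over all 12 libraries. Quasi-likelihood p-values were adjusted by Benjamini-Hochberg over 17335 genes, with a threshold of 0.05. The SE is the absolute log2 value over the square root of F, and the 95% interval uses the t quantile. Prior counts make log2 values of genes near 0 counts depend on the fit. Folds against a group at 0 are lower bounds against 3 counts per group, and they cover counting error only. No group's libraries differed by less than sampling noise.

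The comparison, the 29 gene lists and the genes named were chosen with earlier results of these data known. The naming rule took Dnmt1, Uhrf1, Tet1 and both de novo methyltransferases; the 12 highest and 12 lowest differences with a mean above 1 CPM and at least 10 counts per group; the 8 highest expressed of those with a group under 10 counts; the 4 smallest adjusted p-values in each cell of the knockout by AzadC calls; genes called the same way in both effects, of which there were none; and up to 4 genes per list, or 2 where none passed. Names starting Gm or ending Rik, pseudogenes, Xist, Tsix and Y-linked genes were left out. Alternatives were DESeq2 1.42.0, limma-voom (limma 3.58.1), RLE and upper-quartile scaling, other filters, the replicate number as a block, covariates, a test against a 1.2-fold difference, a shared baseline and leaving out each library. On simulated data with 200 changed genes among 16960, edgeR recovered 19.4%, 35.8% and 68.2% of 1.5-, 2- and 4-fold differences between effects, with 1.2% of 83 calls false.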

Additional observations from a re-analysis of the deposited data

How the results depend on the processing

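The differing genes numbered 763 (382 higher, 381 lower). They were 1459 (755 and 704) with DESeq2, 1438 (704 and 734) with no filter, 382 (162 and 220) with the muscle gene score as a covariate, 326 (168 and 158) against a 1.2-fold difference and 1298 (834 higher) with control and vehicle as 1 shared baseline. The count lay within 1.5 times under limma-voom, other scalings, a minimum mean of 1 CPM, the Y-linked covariate and the replicate block. Leaving out 1 library gave 328 to 878 genes, 168 to 439 higher and 160 to 457 lower: 328 without knockout 2, 385 without AzadC 1, 389 without AzadC 3, 392 without control 2, 427 without vehicle 1 and 484 without knockout 1, while without vehicle 3 the lower genes were 238.

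AzadC against vehicle gave 89 genes with DESeq2, 119 with no filter, 7 with the Y-linked covariate, 1 with the replicate block or against 1.2-fold, and 1 to 17 without 1 library. Vehicle against control gave 1325 with DESeq2, 1259 with no filter, 116 against 1.2-fold and 136 to 704 without 1 library. Knockout against control gave 1077 against 1.2-fold and 1360 to 2551 without 1 library. Knockout against AzadC gave 1197 with the muscle score, 757 against 1.2-fold and 915 to 1950 without 1 library. The number of genes with an interval within 1.5-fold stayed within 1.5 times in all alternatives, 6557 to 6927 without 1 library.

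With the shared baseline the differences of Aspn (0.12), Emp1 (0.15), Plagl1 (0.21) and Wnt16 (0.13) turned positive, which that alternative's construction shows: it drops the vehicle minus control part.

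Replicate numbers showed no pairing common to all groups: same-numbered libraries of different groups correlated at -0.18 to 0.28 in their deviations (median 0.00056, 18 pairs). Same-numbered control and knockout libraries correlated at 0.28, 0.08 and 0.24, and those of control and AzadC at -0.11, -0.05 and -0.18. Whether the numbers pair libraries within a single pair of groups was not tested. With the number as a replicate block 607 differing genes were called. Genes with few counts in a wild-type group limit the precision of the difference, and 425 tested genes had a group under 10 counts.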
